A study of Mus musculus with 5 samples.

Results

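The genes described here encode the machinery with which neurons fill, dock and fuse synaptic vesicles, in olfactory sensory neurons (OSNs) that transcribe the odorant receptor gene *Olfr151*. Members were taken by their symbols: the synaptotagmins, syntaxins, vesicle-associated membrane proteins, SNAP-25 family, syntaxin-binding proteins, complexins, RIM and Unc13 proteins, synapsins, SV2 proteins, vesicular glutamate transporters, *Bsn* and *Pclo*. This gave 76 of the 55411 genes in the count tables, of which 74 were protein coding and 2 were processed pseudogenes, *Stxbp3-ps* and *Vamp7-ps*. The choice used symbols and no measured value, although it was made with earlier results of these data known. It also took *Snap91*, a clathrin adaptor that shares the name and not the function, which was counted on its own. Among the 76, 33 genes whose products work at neuronal release sites were treated as a release core, and the other 43 serve mostly in trafficking elsewhere in the cell.

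All mice carried the same homozygous knock-in, in which an IRES-tau-GFP cassette follows the *Olfr151* coding sequence (*Olfr151* GFP/GFP, on C57BL/6J), so that GFP marks any neuron that transcribes this receptor gene. Males aged 7 weeks breathed acetophenone, an agonist of this receptor, at 5% in DMSO (exposed) or DMSO alone (control) for 5 h. GFP-positive neurons of 4 mice were then sorted into each pool, and control pools 1, 2 and 3 and exposed pools 1 and 3 were analysed. Exposed pool 2 was not analysed here. The sample descriptions give 200 cells per pool in 1 place and 400 in another.

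OSNs release glutamate from their axon terminals onto mitral and tufted cells in the glomeruli of the olfactory bulb. At such a terminal, syntaxin and SNAP-25 on the plasma membrane and VAMP on the vesicle zip together into the SNARE complex that drives fusion. Munc13 proteins prime the complex, complexins hold it, and synaptotagmins trigger fusion when they bind calcium. Synapsins keep vesicles in reserve, RIM, Bassoon and Piccolo organise the active zone, and SV2 proteins and the vesicular glutamate transporter sit in the vesicle membrane. The cell bodies sorted here hold the mRNAs of this machinery, while the terminals themselves stay behind in the bulb.

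Library totals lay between 42780403 and 49527380 counts, so that 3 counts, taken as the limit of detection, correspond to 0.0606 to 0.0701 CPM (counts scaled by library total). Spike-in RNAs held 0.249% to 0.631% of the counts. The mature OSN markers were abundant in every library, none of the 9 at 3 counts or fewer, and their summed level was 71630 to 79456 TPM (counts scaled by exon length and by library) in the control and 58522 to 58939 TPM in the exposed libraries. Of the 5 immature OSN markers, *Gap43*, *Gng8* and *Dpysl3* had more counts in both exposed libraries than in any control library, *Tubb3* had fewer in both (5877 and 4696 against 7415 to 10140 counts) and *Stmn2* overlapped, as did the summed level of that list (856 to 975 TPM against 874 to 1092 TPM). Summed immune markers lay at 43.2 to 436 TPM in the control and 158 to 457 TPM in the exposed libraries, and sustentacular markers at 165 to 617 TPM against 251 to 497 TPM. Erythrocyte markers stood at 1324, 485 and 52.0 TPM in control pools 1, 2 and 3 and at 53.7 and 25.9 TPM in exposed pools 1 and 3. Globose basal and neuronal precursor markers, mostly *Lhx2*, were lower in both exposed libraries (275, 361 and 92.5 TPM against 31.6 and 70.5 TPM). Endothelial markers did not exceed 4.0 TPM in any library, with 2 of 3 at 3 counts or fewer throughout. The part of these markers in the results below was not tested. In pooled cells, a smaller share of cells with a transcript and less of it per cell cannot be told apart.

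In resting OSNs, the highest levels belonged to synaptotagmin, SNARE and glutamate transporter genes. In the control libraries, *Syt11*, a synaptotagmin that does not bind calcium, stood at 614 ± 67.8 TPM (mean ± SD, n = 3), followed by the vesicle SNARE *Vamp2* at 508 ± 89.3 TPM and by *Snap25* at 475 ± 39.9 TPM. Neighbouring levels in this order overlapped between libraries. The vesicular glutamate transporter *Slc17a6* stood at 379 ± 29.7 TPM, the calcium sensor *Syt1* at 318 ± 36.5 TPM, the plasma membrane syntaxin *Stx2* at 313 ± 41.6 TPM and the endosomal syntaxin *Stx12* at 250 ± 32.0 TPM. *Slc17a6* lay apart from *Snap25* above it and *Syt1* below it, while the 3 genes from *Syt1* down overlapped with their neighbours. Complexin, priming and scaffold genes lay lower, with *Cplx2* at 46.3 ± 10.4 TPM, *Unc13c* at 18.5 ± 3.34 TPM, *Pclo* at 8.36 ± 3.32 TPM and *Bsn* at 7.81 ± 1.95 TPM. At the other end, *Cplx3*, *Cplx4*, *Rims4*, *Slc17a8*, *Syt6*, *Syt8* and *Syt10* were at 0 counts in all 5 libraries, which allows a level of up to 3 counts in each, and *Syt2* and *Syt15* did not exceed 1 count.

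Averaged over the control libraries, the leading paralogue held more than 90% of the summed TPM in 5 of 12 families, and 35.7% to 70.1% in the other 7. *Slc17a6* held at least 99.8% of the summed TPM of the vesicular glutamate transporters in each library, with *Slc17a7* at 13 to 59 counts. *Vamp2* held 93.3% to 96.1% of Vamp1-3 and *Cplx2* at least 95.8% of the complexins. The plasma membrane syntaxins were led by *Stx2* (68.7% to 70.9% in the control libraries) and not by the neuronal *Stx1a* (15.7% to 16.8%). Of the Munc13 genes, *Unc13c* was the highest in every library and *Unc13a*, *Unc13b* and *Unc13c* were all present.

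**Figure D1:**
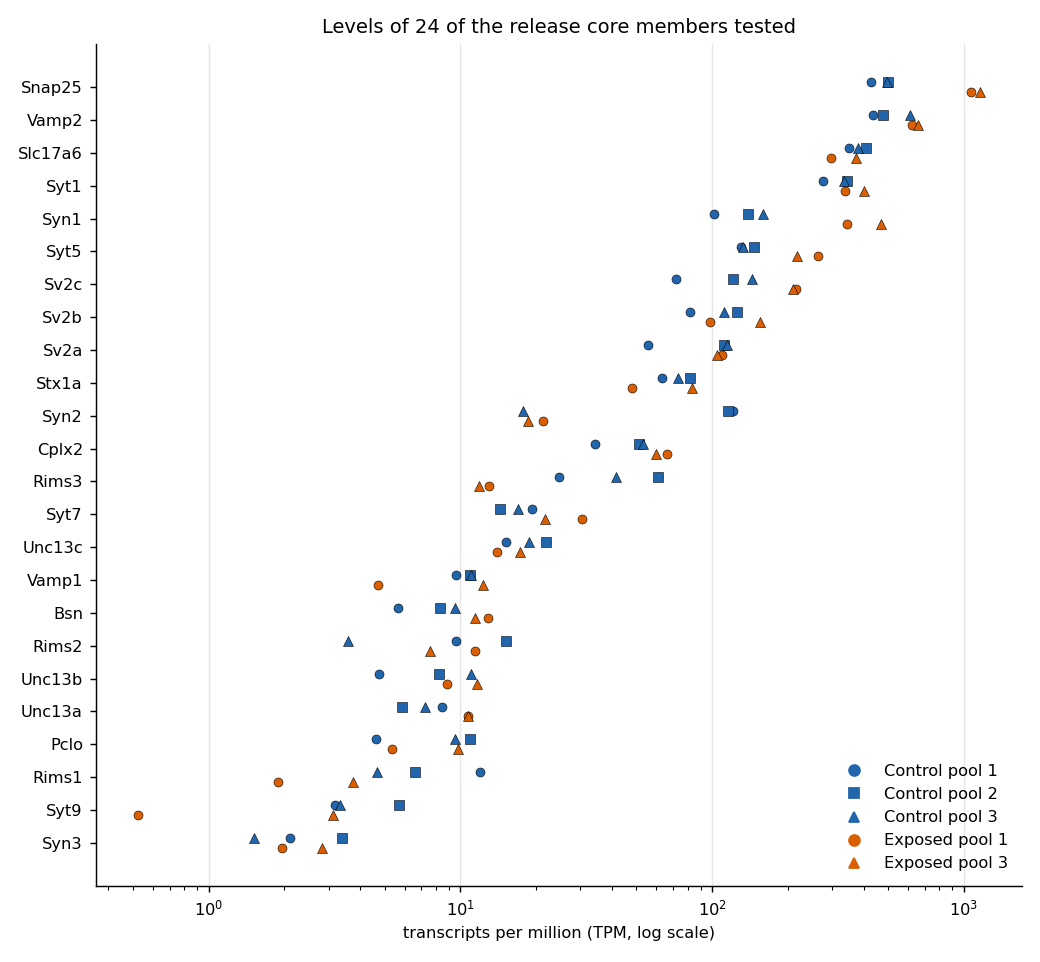
Levels (TPM, log scale) of 24 release core members that were tested, with 1 symbol per library, control in blue and exposed in orange. Levels run from 0.522 TPM for *Syt9* in exposed pool 1 to 1064 and 1163 TPM for *Snap25* in the exposed libraries. *Snap25*, *Syn1*, *Syt5* and *Sv2c* have both exposed symbols to the right of all control symbols. So do *Bsn*, *Cplx2*, *Syt7*, *Unc13a* and *Vamp2*, which edgeR did not call. *Rims1*, *Rims3* and *Syt9* have both exposed symbols to the left.

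Exposure was then compared with control over the 10054 genes that reached 140 counts in all libraries of 1 or both conditions. Of the 76 members, 52 passed this filter and 24 did not. By edgeR's quasi-likelihood test, with an adjusted p under 0.1 and a log2 fold change beyond 0.5 in either direction, 5 members were upregulated (*Snap25*, *Syt4*, *Syn1*, *Syt5* and *Sv2c*), 1 was downregulated (*Rims3*) and 46 were not called. These are 9.62% and 1.92% of the members tested, beside 3.42% of all genes tested called up and 1.85% called down. In the release core the counts were 4 up and 1 down of 26 tested, and among the other members 1 up (*Syt4*) and 0 down of 26, where by the same edgeR test 1 member had an unadjusted p under 0.05 with a higher level and 4 with a lower level. DESeq2's Wald test against 0 called 9 members up (17.3%) and 4 down (7.69%), beside 7.21% and 7.65% of all genes tested. Beyond the 6 members above, DESeq2 called *Bsn*, *Cplx2*, *Syt7* and *Vamp2* up and *Stx2*, *Syt16* and the tomosyn gene *Stxbp5* down, the last 3 all outside the release core. The downregulated share thus lay near the background with either tool.

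*Snap25* encodes the plasma membrane SNARE that gives a pair of helices to the complex. It measured 905, 936 and 972 CPM in control pools 1, 2 and 3, against 2431 and 2504 CPM in exposed pools 1 and 3. Both exposed libraries lay far above the narrow control range, and the mean was 2.63-fold higher (log2 fold change 1.40 ± 0.11 SE, adjusted p = 0.00241 by edgeR's quasi-likelihood test). With a mean of 730 TPM over the 5 libraries it was the most abundant of all members.

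*Syt4* encodes a synaptotagmin of secretory vesicles, whose transcript has been described as induced by depolarization in cell culture. It stood at 199, 175 and 231 CPM in the control libraries and at 781 and 918 CPM in the exposed ones. The exposed values were separated from the control values by a wide gap, with a 4.21-fold higher mean (log2 fold change 2.07 ± 0.16 SE, adjusted p = 0.00267 by edgeR's quasi-likelihood test). Of its exon bases, 14.5% overlap an antisense gene, *Gm26658*, and the counting did not use strand, so that reads in that stretch could not be assigned to either gene.

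*Syn1* encodes the phosphoprotein synapsin I, which tethers vesicles of the reserve pool. It measured 105, 126 and 152 CPM in the control libraries and 382 and 491 CPM in the exposed libraries. The groups did not overlap and the exposed mean was 3.43-fold higher (log2 fold change 1.78 ± 0.20 SE, adjusted p = 0.00913 by edgeR's quasi-likelihood test).

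*Syt5*, a calcium-binding synaptotagmin, stood at 96.0, 96.0 and 90.8 CPM in the control libraries and at 211 and 163 CPM in the exposed libraries. Its control values were close to each other and its exposed values less so, with a 1.99-fold higher mean (log2 fold change 0.99 ± 0.17 SE, adjusted p = 0.0364 by edgeR's quasi-likelihood test). *Sv2c* encodes a vesicle glycoprotein that also serves as a receptor for botulinum neurotoxin A. Its values were 217, 325 and 402 CPM against 702 and 643 CPM. Here the control libraries themselves were spread, and the exposed mean was 2.14-fold higher (log2 fold change 1.10 ± 0.25 SE, adjusted p = 0.0775 by edgeR's quasi-likelihood test).

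*Rims3*, which encodes a short RIM protein without the Rab3-binding region, was the member called in the other direction. It measured 60.9, 134 and 95.9 CPM in control pools 1, 2 and 3 and 34.9 and 30.0 CPM in the exposed pools. The control libraries differed among themselves by more than the gap between control pool 1 and exposed pool 1, and the fitted log2 fold change was −1.58 ± 0.36 SE (adjusted p = 0.0769 by edgeR's quasi-likelihood test). The call was lost when control pool 2 (adjusted p = 0.174), control pool 3 (0.10), exposed pool 1 (0.347) or exposed pool 3 (0.251) was left out of the edgeR fit.

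The calls for *Snap25*, *Syt4* and *Syn1* held without any of the 5 libraries, with log2 fold changes of 1.35 to 1.45, 1.93 to 2.21 and 1.56 to 1.95. That of *Syt5* was lost in the edgeR fit without control pool 2 (log2 fold change 1.01, adjusted p = 0.116) or without exposed pool 1 (0.78, adjusted p = 0.293). That of *Sv2c* was lost without control pool 2 (1.13, adjusted p = 0.202), exposed pool 1 (1.02, adjusted p = 0.393) or exposed pool 3 (1.13, adjusted p = 0.215). When an exposed pool is left out, the remaining one is assumed to vary like the control pools.

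**Figure D2:**
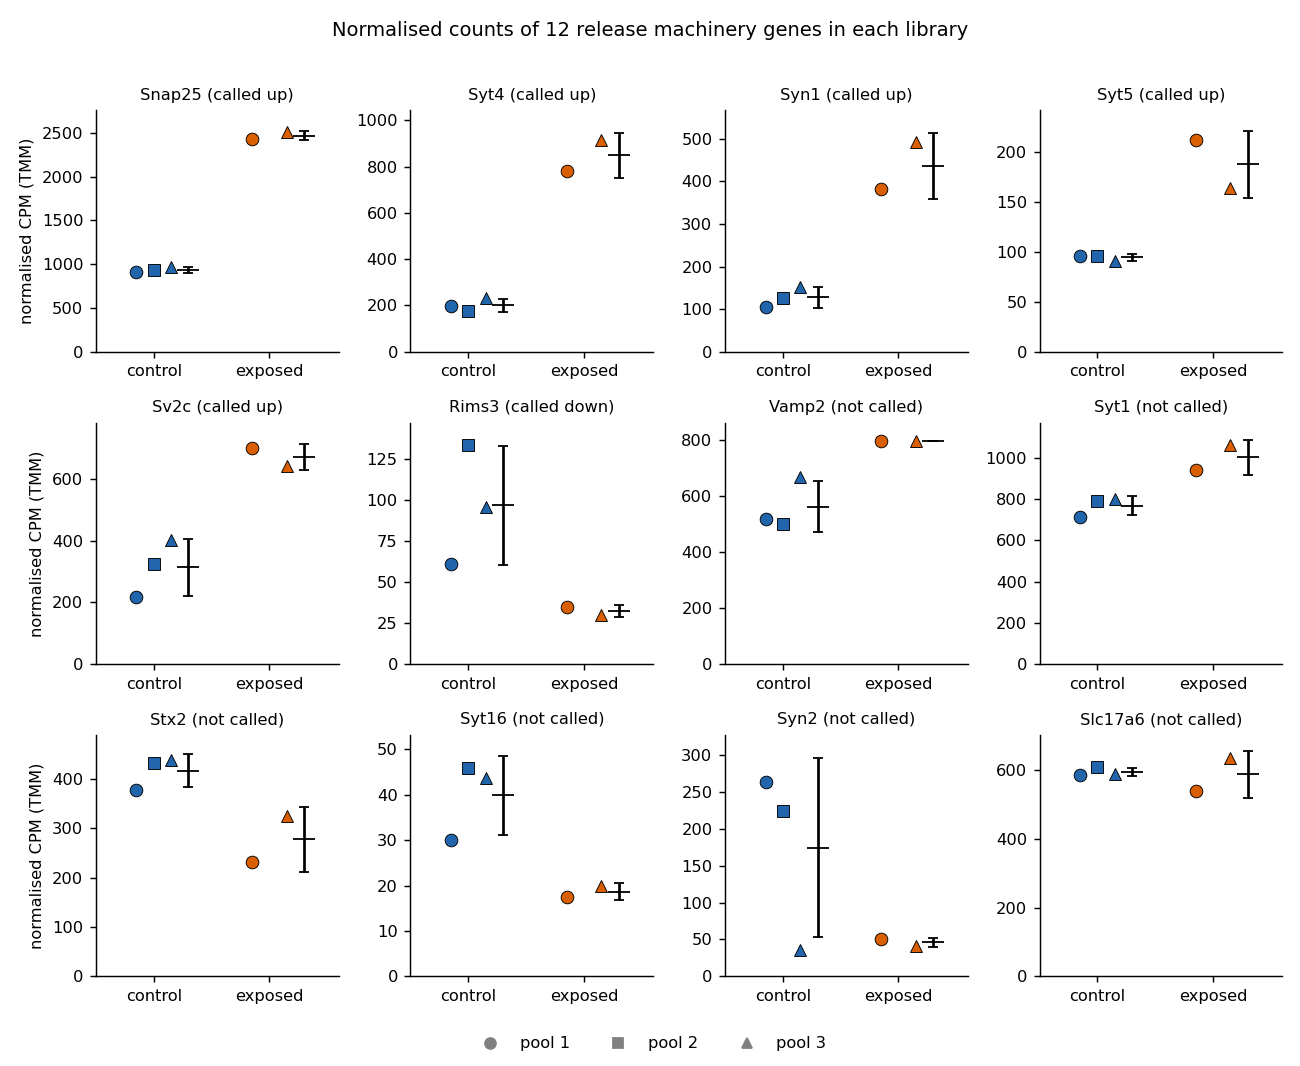
Normalised CPM of 12 members in each library, on axes that start at 0, with pool numbers as symbol shapes and the mean ± SD of each condition in black beside the points (3 control and 2 exposed libraries). *Snap25* sits at 905 to 972 CPM in the control and at 2431 to 2504 CPM in the exposed libraries, while *Slc17a6* stays at 541 to 636 CPM throughout, and *Syn2* in control pool 3 lies with the exposed libraries.

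These values are relative to the total RNA counted. Scaling to the spike-in RNAs in place of TMM moved the median over all tested genes, on the log2 scale, from −0.03 to −0.23, and no member was then called, beside 0.935% of all genes tested called up and 0.487% called down. At an unadjusted p under 0.05 in edgeR, 2 of the 52 members then had a higher and 3 a lower level, beside 2.36% and 3.84% of all genes tested. *Syt4* kept a log2 fold change of 1.91 ± 0.72 SE under this scaling (adjusted p = 0.287 by edgeR), *Syn1* 1.57 ± 0.72 SE (adjusted p = 0.594) and *Snap25* 1.18 ± 0.71 SE (adjusted p = 1.00). Per 1000 spike-in counts, *Syt4* gave 31.5, 70.3 and 71.3 counts in the control and 142 and 293 in the exposed libraries. Of the called members, the groups remained apart for *Syt4* and *Syn1* (16.6 to 50.5 against 69.2 and 157). They also did for *Snap25* (143 to 375 against 440 and 799) and, narrowly, for *Rims3* (9.64 to 53.7 against 6.33 and 9.56). The groups overlapped for *Syt5* and *Sv2c*. Of the 52 members tested, 5 were higher in both exposed libraries by this measure, 2 were lower and 45 overlapped. Those apart included *Syt7*, *Unc13a* (higher) and *Rims1* (lower), which edgeR did not call. The share over all genes was not taken.

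The called members were spread over the genome. In GRCm38 (the annotation deposited with the counts), *Snap25* lies at chr2:136713453-136782428, *Syn1* at chrX:20860511-20921004, *Syt5* at chr7:4539765-4547541 and *Sv2c* at chr13:95954594-96132577, each on a chromosome of its own. *Rims3* lies at chr4:120854816-120896579. The RefSeq promoter windows (250 bases before to 50 after the gene start, GRCm38.p6) cover 58 of the 76 members, among them *Syn1*, *Sv2c* and *Rims3* of the called genes. They are shown because these members were called and because the *Syn1* window holds the full cAMP response element (CRE) TGACGTCA, in capitals. Its first base lies 159 bases before the RefSeq start from which that window was taken. That start differs from the outer end of *Syn1* given above. Each is written 5′ to 3′ on the strand of its gene: *Syn1* at chrX:20920869-20921168 (minus strand), *Sv2c* at chr13:96132528-96132827 (minus strand) and *Rims3* at chr4:120854549-120854848 (plus strand).
Syn1: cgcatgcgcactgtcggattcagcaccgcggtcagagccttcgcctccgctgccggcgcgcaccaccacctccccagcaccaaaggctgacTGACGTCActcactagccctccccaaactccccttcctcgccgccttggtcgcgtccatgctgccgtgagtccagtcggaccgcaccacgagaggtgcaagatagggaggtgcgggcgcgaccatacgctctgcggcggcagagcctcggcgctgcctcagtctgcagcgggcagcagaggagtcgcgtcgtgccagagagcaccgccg
Sv2c: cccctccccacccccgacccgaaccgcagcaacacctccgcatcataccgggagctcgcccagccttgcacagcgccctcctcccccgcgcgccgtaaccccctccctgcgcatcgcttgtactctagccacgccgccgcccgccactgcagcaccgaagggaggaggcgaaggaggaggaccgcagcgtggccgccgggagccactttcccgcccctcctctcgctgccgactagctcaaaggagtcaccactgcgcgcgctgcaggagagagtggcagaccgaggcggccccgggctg
Rims3: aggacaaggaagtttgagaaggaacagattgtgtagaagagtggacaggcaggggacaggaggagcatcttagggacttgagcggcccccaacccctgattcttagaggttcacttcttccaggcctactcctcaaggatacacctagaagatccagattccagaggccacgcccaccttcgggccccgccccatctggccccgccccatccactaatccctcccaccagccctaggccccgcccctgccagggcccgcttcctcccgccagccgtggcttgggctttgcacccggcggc
Both strands were searched for 4 motifs. The CRE was in 2 of 58 member windows (3.45%; *Syn1* and *Stxbp3*), beside 1.88% of 27025 promoters. Its core TGACG, which the full CRE contains, was in 13 of 58 (22.4%, beside 21.0%), the AP-1 motif TGANTCA in 2 of 58 (3.45%, beside 7.93%) and the palindromic Ebf motif in 1 of 58 (*Stx2*, 1.72%, beside 0.914%). The *Sv2c* and *Rims3* windows held none of the 4 in these letters. The last bases of the *Rims3* window were not found in a transcript, while those of the *Syn1* and *Sv2c* windows were.

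The SNARE partners of *Snap25* did not pass the test. *Vamp2* measured 518, 502 and 669 CPM in the control libraries and 798 and 797 CPM in the exposed libraries, so both exposed values lay above the control range (log2 fold change 0.50 ± 0.16 SE, adjusted p = 0.163 by edgeR's quasi-likelihood test). Without control pool 3 it was called, with a log2 fold change of 0.67 (adjusted p = 0.0697 by edgeR). Its paralogue *Vamp1* was low and overlapped, at 30.3 to 32.3 CPM against 16.1 and 39.6 CPM. *Stx2* stood at 378, 432 and 439 CPM against 231 and 325 CPM, lower in both exposed libraries (log2 fold change −0.58 ± 0.18 SE, adjusted p = 0.163 by edgeR's quasi-likelihood test). The neuronal *Stx1a* overlapped between the groups, at 52.2 to 60.1 CPM against 43.3 and 70.3 CPM. None of the 13 syntaxins tested was called by edgeR, where *Stx2* alone had an unadjusted p under 0.05, and DESeq2 called it down. The log2 fold changes of the syntaxins in the plot by role lay between −0.58 and 0.60. The endosomal *Stx12*, second among them in level, had a log2 fold change of 0.24 ± 0.15 SE.

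Within the SNAP-25 family, the composition moved with *Snap25*. It held 65.0%, 62.8% and 66.1% of the family's summed TPM in the control libraries and 85.8% and 83.7% in the exposed libraries. *Snap47*, the second member, went from 27.3% to 30.4% in the control to 9.88% and 12.2% in the exposed libraries, and its own level was 152 to 177 CPM against 109 and 143 CPM (log2 fold change −0.36 ± 0.18 SE, adjusted p = 0.337 by edgeR's quasi-likelihood test). The difference in the share of *Snap25* was 20.1 percentage points (p = 0.10, the smallest that a two-sided exact permutation test of 3 against 2 libraries allows, 0.30 after adjustment over 12 families). No family could therefore reach 0.05 in this design.

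Of the complexin, Munc13 and syntaxin-binding protein genes, none was called by edgeR. At an unadjusted p under 0.05, *Cplx2* and *Unc13a* had a higher level and 2 syntaxin binders a lower level. DESeq2 called *Cplx2* up and *Stxbp5* down. *Cplx2*, the complexin of these neurons, measured 52.6, 69.7 and 75.6 CPM in the control and 110 and 93.7 CPM in the exposed libraries (log2 fold change 0.63 ± 0.23 SE, adjusted p = 0.203 by edgeR's quasi-likelihood test). *Cplx1* was at 0 counts in control pool 2 and exposed pool 1 and at 25 to 57 counts elsewhere. Of the Munc13 genes, *Unc13a* stood at 20.4 to 33.2 CPM against 45.4 and 43.1 CPM (log2 fold change 0.73 ± 0.29 SE, adjusted p = 0.242), without overlap, and *Unc13b* and *Unc13c* overlapped with log2 fold changes of 0.53 ± 0.34 SE and −0.08 ± 0.24 SE by edgeR's quasi-likelihood test. The tomosyn gene *Stxbp5l*, whose product competes for SNAREs, overlapped at 99.6 to 139 CPM against 103 and 124 CPM.

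The synaptotagmins held 2 of the 5 upregulated members. Their composition differed between the conditions: *Syt4* made up 12.1% to 14.2% of the summed TPM of the 17 genes in the control libraries and 31.8% and 37.2% in the exposed libraries. *Syt11* went from 45.4% to 47.1% down to 32.6% and 28.9%, although its own level overlapped at 879 to 1024 CPM against 1072 and 953 CPM (log2 fold change 0.12 ± 0.13 SE). The calcium sensor *Syt1* measured 715, 790 and 801 CPM in the control and 945 and 1063 CPM in the exposed libraries, both exposed values being higher (log2 fold change 0.38 ± 0.12 SE, adjusted p = 0.171 by edgeR's quasi-likelihood test). *Syt7*, a slower calcium sensor, had values of 44.7, 29.8 and 36.5 CPM against 76.4 and 51.7 CPM (log2 fold change 0.79 ± 0.29 SE, adjusted p = 0.207 by edgeR's quasi-likelihood test). *Syt9* overlapped at 3.83 to 6.24 CPM against 0.70 and 3.92 CPM. In the other direction, *Syt16*, a member that does not bind calcium, stood at 30.0, 46.0 and 43.8 CPM against 17.4 and 20.0 CPM, lower in both exposed libraries (log2 fold change −1.10 ± 0.31 SE, adjusted p = 0.129 by edgeR's quasi-likelihood test). It was called without control pool 1 (−1.26, adjusted p = 0.0898 by edgeR).

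**Figure D3:**
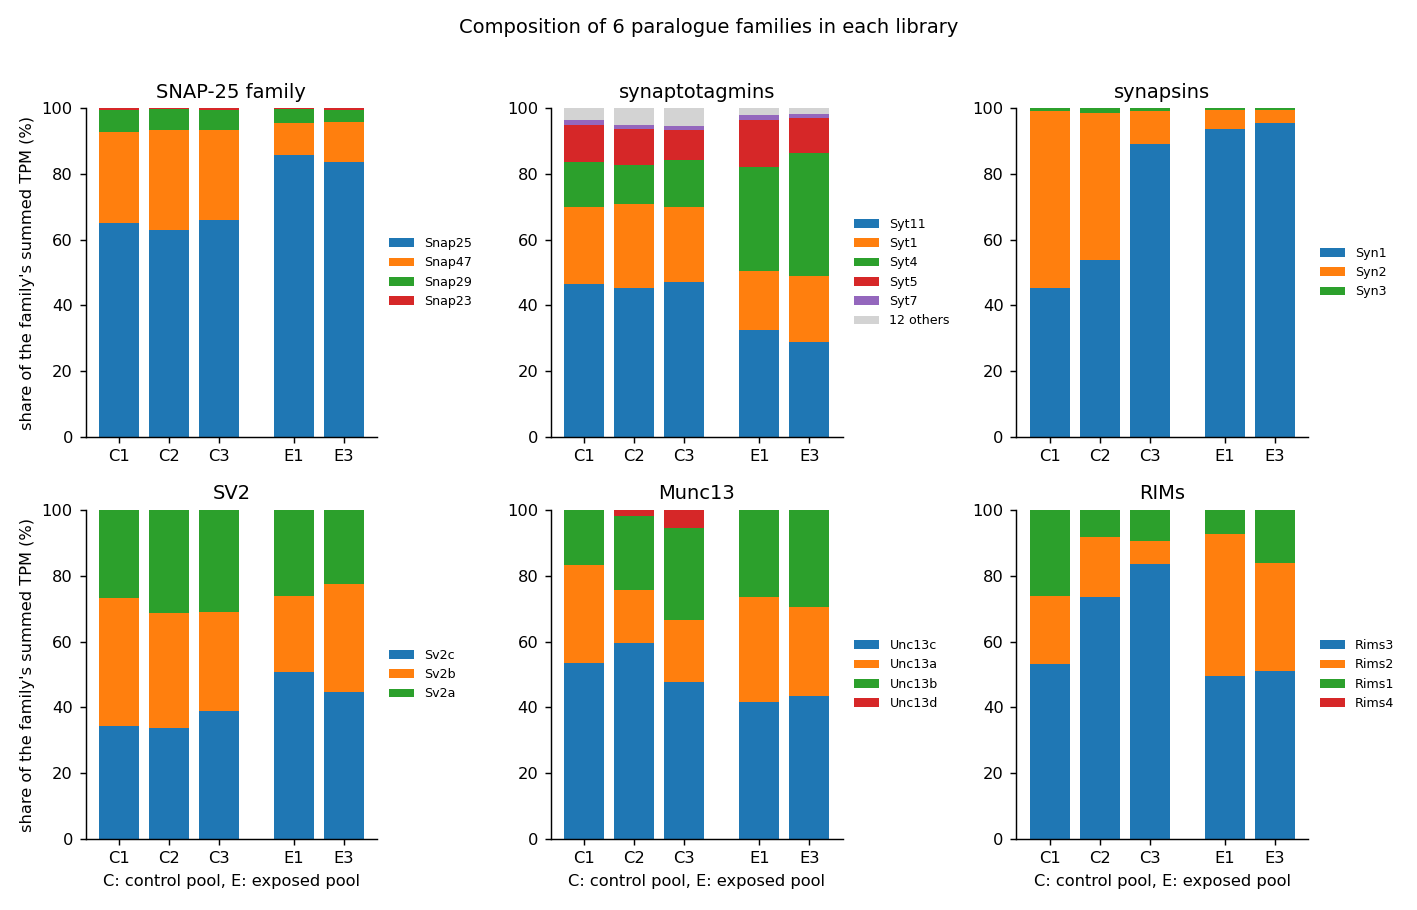
Share of each paralogue (%) in the summed TPM of its family, with 1 stacked bar per library for 6 families (C, control pools 1 to 3; E, exposed pools 1 and 3). *Snap25* takes 62.8% to 66.1% of its family in the control and 83.7% to 85.8% in the exposed bars, *Syt4* widens from 12.1% to 14.2% up to 31.8% to 37.2%, and the synapsin bar of control pool 3 looks like those of the exposed pools.

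Among the active zone scaffolds, *Bsn*, which encodes Bassoon, measured 28.1, 36.3 and 43.6 CPM in the control and 69.3 and 57.7 CPM in the exposed libraries, without overlap (log2 fold change 0.82 ± 0.27 SE, adjusted p = 0.175 by edgeR's quasi-likelihood test). *Pclo*, which encodes Piccolo, overlapped at 32.2 to 67.7 CPM against 40.5 and 70.0 CPM. Of the long RIM genes, *Rims1* stood at 29.2, 14.3 and 10.5 CPM against 4.97 and 9.26 CPM (log2 fold change −1.34 ± 0.57 SE, adjusted p = 0.268 by edgeR's quasi-likelihood test), and *Rims2* at 10.7 to 43.6 CPM against 39.9 and 25.0 CPM. *Rims3* held 53.3% to 83.5% of the RIM transcripts in the control and 49.5% and 51.1% in the exposed libraries, and *Rims2* 7.14% to 20.8% against 43.3% and 32.8%. Of the 8 scaffold and priming genes tested, *Rims3* was called and 7 were not.

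The 3 synapsins differed from each other. While *Syn1* was upregulated, *Syn2* measured 264 and 224 CPM in control pools 1 and 2, 35.8 CPM in control pool 3, and 50.5 and 41.4 CPM in the exposed pools. Control pool 3 therefore lay below both exposed libraries, and the difference did not pass the test (log2 fold change −1.92 ± 0.79 SE, adjusted p = 0.26 by edgeR's quasi-likelihood test). Without control pool 3 *Syn2* was called, with a log2 fold change of −2.38 (adjusted p = 0.00719 by edgeR). *Syn1* took 45.4%, 53.8% and 89.3% of the synapsin TPM in control pools 1, 2 and 3, and 93.7% and 95.6% in the exposed pools, so this family's composition in the control varied with 1 library. *Syn3* was low throughout, at 5.39 to 11.5 CPM against 8.09 and 11.0 CPM.

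Of the SV2 genes, *Sv2c* rose and the other 2 were not called. *Sv2a* measured 80.2, 143 and 153 CPM against 171 and 153 CPM (log2 fold change 0.37 ± 0.28 SE), and *Sv2b* 213, 290 and 269 CPM against 277 and 411 CPM (0.42 ± 0.22 SE). *Sv2c* held 33.9% to 38.9% of the family's summed TPM in the control and 50.8% and 44.7% in the exposed libraries. The transporter that loads glutamate, *Slc17a6*, stood at 587, 609 and 589 CPM in the control and 541 and 636 CPM in the exposed libraries, with a log2 fold change of −0.02 ± 0.13 SE by edgeR. Its exposed values lay on either side of the control range.

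**Figure D4:**
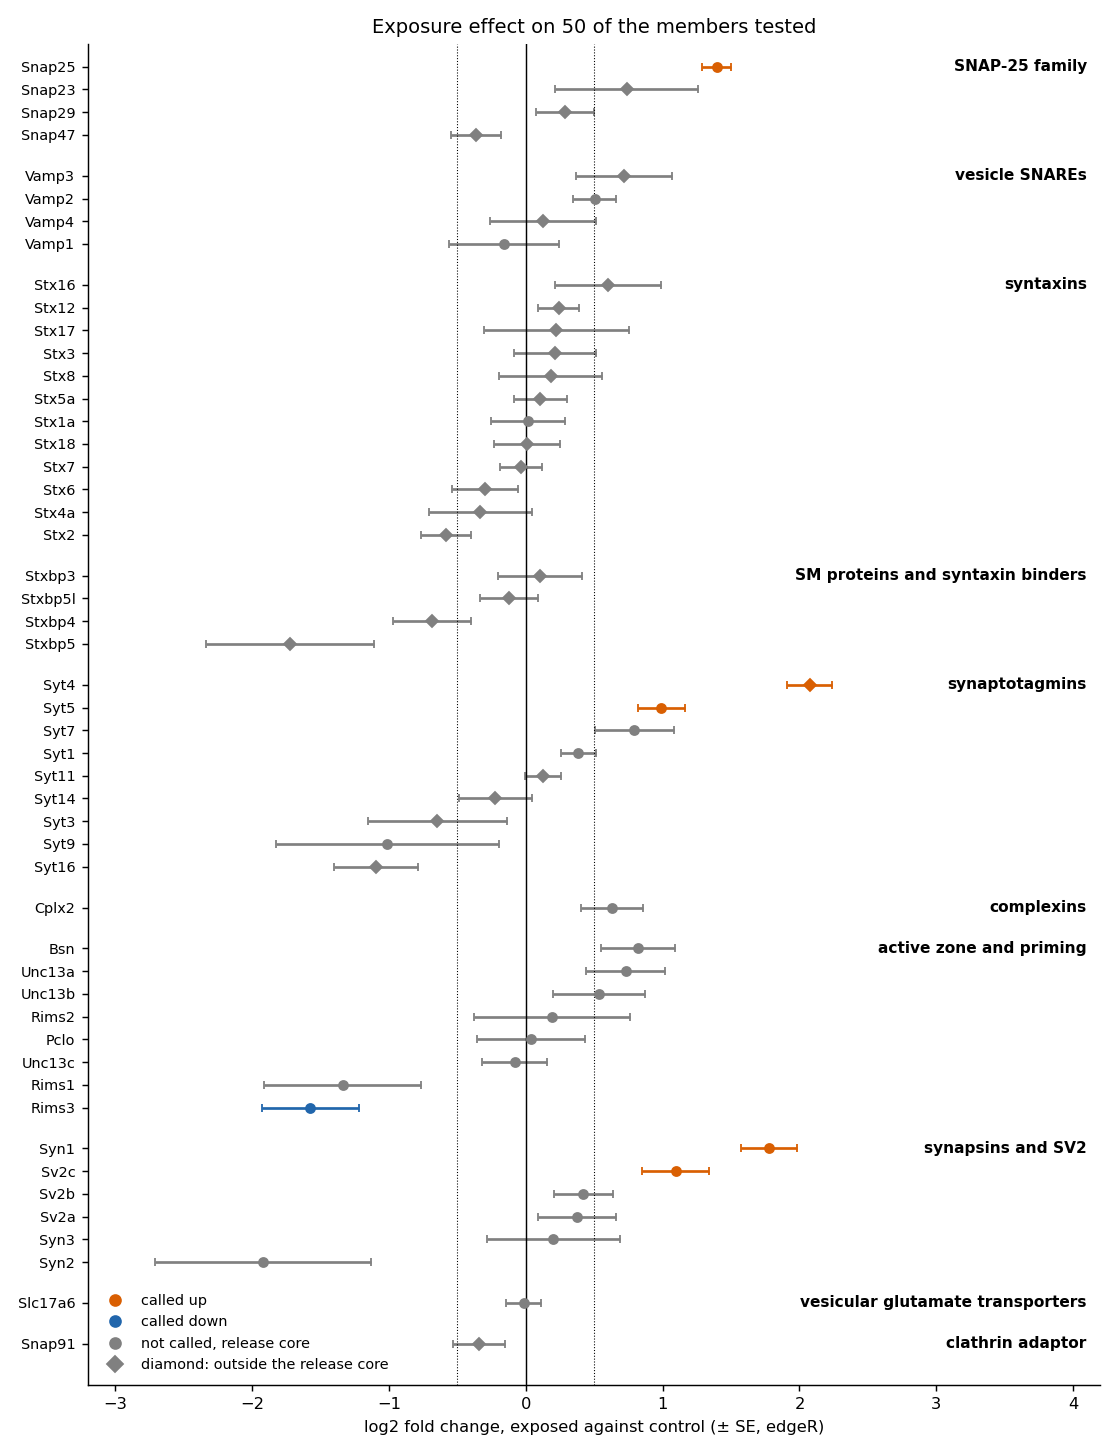
Log2 fold change (exposed against control, ± SE from edgeR) of 50 members tested, grouped by role, with dotted lines at −0.5 and 0.5. The 5 upregulated members, in orange, lie between 0.99 (*Syt5*) and 2.07 (*Syt4*), the downregulated *Rims3*, in blue, at −1.58, and the syntaxins shown between −0.58 and 0.60.

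Without regard to calls, both exposed libraries lay above all 3 control libraries for 18 of the 52 members (34.6%, beside 20.3% of all genes tested) and below them for 7 (13.5%, beside 19.6%). In the release core these counts were 11 and 2 of 26, and among the others 7 and 5 of 26. An unadjusted p under 0.05 went with a higher level in 11 members (21.2%, beside 9.22% of all genes tested) and with a lower level in 6 (11.5%, beside 9.92%). The median log2 fold change was 0.38 in the release core, 0.06 in the other members and −0.03 over all genes tested. No test of these lists was made.

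The summed level of the release core was 2474, 3098 and 3012 TPM in control pools 1, 2 and 3 and 3816 and 4325 TPM in exposed pools 1 and 3. Its 4 upregulated members accounted for 857 ± 108 TPM in the control (n = 3) and 1973 ± 122 TPM in the exposed libraries (n = 2). The calls themselves chose these 4 genes, so their sum is a description. Per 1000 spike-in counts and per kb of exon, the whole core overlapped, at 122 to 343 counts in the control and 233 and 438 in the exposed libraries. Together the 76 members took 0.739% to 0.860% of the counts in the control and 1.08% and 1.14% in the exposed pools.

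Other genes of the release cycle, listed by their function, were then examined in the same fit. Of 87 such genes 64 were tested, and 4 were upregulated (6.25%, beside 3.42% of all genes tested) and 0 downregulated (beside 1.85%). At an unadjusted p under 0.05 in edgeR, 9 had a higher level (14.1%, beside 9.22%) and 6 a lower level (9.38%, beside 9.92%). DESeq2 called 5 up (7.81%, beside 7.21%) and 3 down (4.69%, beside 7.65%). *Slc6a17*, a transporter of neutral amino acids in the vesicle membrane, measured 48.3, 68.6 and 73.9 CPM in the control and 149 and 175 CPM in the exposed libraries, a wide separation (log2 fold change 1.35 ± 0.23 SE, adjusted p = 0.0348 by edgeR's quasi-likelihood test). *Rab3gap1*, which encodes the catalytic subunit of the Rab3 GTPase-activating complex, stood at 142, 190 and 152 CPM against 317 and 303 CPM (0.94 ± 0.17 SE, adjusted p = 0.0404 by edgeR). Both exposed values lay above the control range for each. The first was 1 of 16 genes tested for the proton pump and vesicle loading, the second 1 of 6 tested for the Rab3 and Rab27 cycle.

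The other pair belonged to clathrin-mediated vesicle retrieval. The clathrin heavy chain *Cltc* measured 425, 569 and 414 CPM against 755 and 928 CPM (log2 fold change 0.84 ± 0.18 SE, adjusted p = 0.0706 by edgeR's quasi-likelihood test), and the adaptor subunit *Ap2a2* 192, 198 and 201 CPM against 322 and 342 CPM (0.75 ± 0.13 SE, adjusted p = 0.0358 by edgeR). They were 2 of 19 endocytosis genes tested, and the other 17 were not called. At an unadjusted p under 0.05 in edgeR, 3 genes of this list had a higher and 2 a lower level. DESeq2 called 2 of the list up and 1 down. The neuronal clathrin adaptor *Snap91* was not called, at 242 to 285 CPM against 174 and 246 CPM. No gene was called among the vesicle membrane proteins (6 tested), the active zone partners (9 tested) or the genes of SNARE recycling (8 tested), where by edgeR 2, 2 and 2 genes had an unadjusted p under 0.05 and DESeq2 called 0, 1 and 2. The most abundant of each were *Syp*, the vesicle marker synaptophysin (log2 fold change 0.33 ± 0.14 SE, adjusted p = 0.259), *Cadps2* (−0.03 ± 0.13 SE, adjusted p = 0.942) and *Napa*, which encodes alpha-SNAP (−0.54 ± 0.14 SE, adjusted p = 0.103 by edgeR's quasi-likelihood test). *Rab3a*, the vesicle GTPase to which RIM proteins bind, had a log2 fold change of −0.44 ± 0.15 SE (adjusted p = 0.192 by edgeR).

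**Figure D5:**
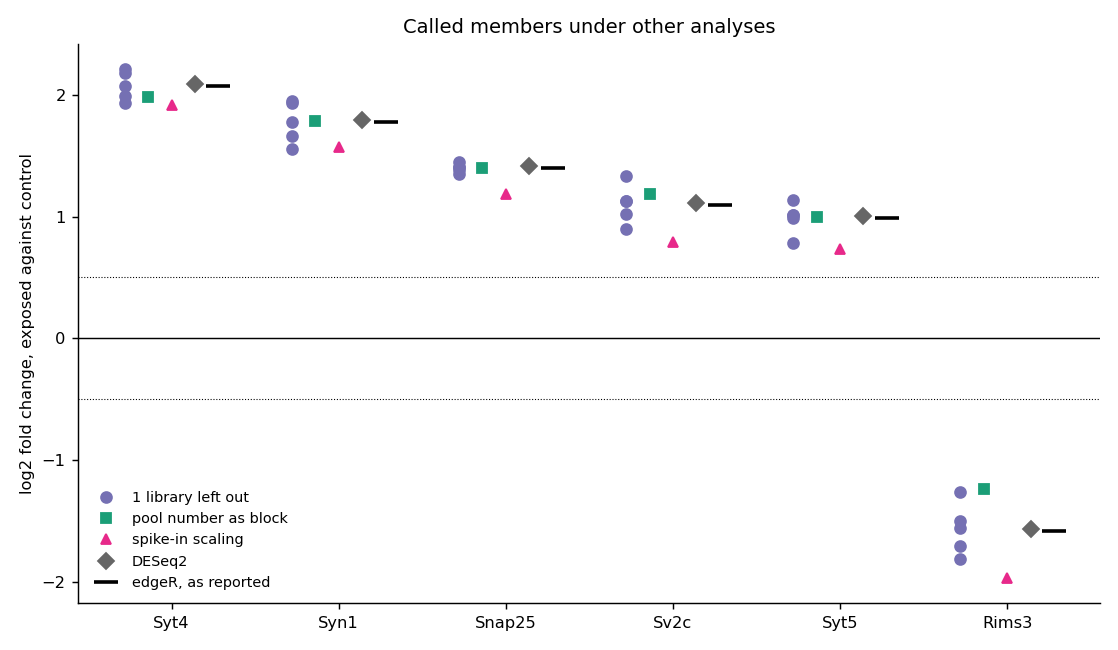
Log2 fold changes of the 6 called members as reported and under other analyses: each library left out in turn, the pool number as a block, spike-in scaling and DESeq2, with dotted lines at −0.5 and 0.5. All values keep their direction, *Snap25* between 1.18 and 1.45 and *Rims3* between −1.96 and −1.24, although not all of them pass the test.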

How the data were processed

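Neurons were sorted by GFP from *Olfr151* GFP/GFP mice, and 3 control and 2 exposed pools were analysed, grouped by their labels. The authors mapped single reads of 50 bases with STAR 2.7.0a on GRCm38 and deposited raw counts per gene made with featureCounts 1.6.3 (Ensembl release 99 with updated OR models, spike-in RNAs and the IRES-tau-GFP reporter). Reads that map to several places were not counted and strand was not used, so near-identical copies lose reads and overlapping genes share uncertainty, among the members tested most so for *Stx18* (32.3% of exon bases shared with other genes), *Syt4*, *Syn3* and *Snap47*. Symbols came from GENCODE M21 for 55144 of 55411 genes.

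From these counts, genes that reached 140 counts in all libraries of 1 or both conditions were fitted in R 4.3.3 with edgeR 4.0.16 (TMM, glmQLFit with robust estimation, glmQLFTest). The filter value is where the density of the log2 counts has its local minimum. Calls needed a Benjamini-Hochberg adjusted p under 0.1 over all 10054 genes and an absolute log2 fold change above 0.5. CPM use TMM-scaled library sizes (factors 0.980 to 1.03). TPM use the exon lengths deposited with the counts and no TMM factor, so that a level in TPM and a difference in CPM may move apart. Shares were compared by exact permutation in Python 3.11.15. Alternatives were DESeq2 1.42.0 against 0 or 0.5 (the authors used 1.30.1), glmTreat, RLE or spike-in scaling, an adjusted p of 0.05, no robust estimation, other count filters, the pool number as a block, and leaving out each library. The edgeR fit was tested on simulated counts of 10054 genes. It recovered 7 of 50 genes changed 2-fold (14%), 31 of 50 changed 4-fold (62%) and 44 of 50 changed 8-fold (88%). Another 14 calls were false. A member that was not called may therefore still have differed.

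Members, lists and tests were chosen with earlier results of these data known. Named genes are called members, the 2 highest of each role by mean TPM, the release core, the 5 lowest unadjusted p-values among members not called, members at 3 counts or fewer, and of other release cycle genes those called and the 2 highest of each list. *Stxbp2*, *Stxbp3*, *Stxbp5*, *Stxbp6*, *Vamp9*, *Stx18* and the single marker genes, were named after their values were seen. Values of 2 members are not reported here. The experiment ran over 3 days with both conditions on each day, and the labels assign no pool to a day, and p-values measure the spread between pools. Reads carry no molecular identifiers, so detection limits cover counting error only.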

Additional observations from a re-analysis of the deposited data

How the results depend on the processing

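There were only 2 exposed pools, so their spread is known from 1 difference, and the count of called members moved with the analysis. Against 5 up and 1 down, DESeq2 gave 9 up and 4 down, DESeq2 against 0.5 and glmTreat 3 up and 0 down each, spike-in scaling 0 and 0, and an adjusted p of 0.05, filterByExpr and a filter of 10 counts 0 down. Leaving out 1 library gave 3 to 6 up and 0 to 2 down. Fewer samples or a stricter criterion enter some of these, and for the others the cause was not tested. For the fits against 0.5, with a stricter p, with other filters or without 1 library, calls over all genes are not given here. The member counts of those fits therefore have no background beside them. The pool number as a replicate block gave 1 up (*Syt4*) and 0 down of the members. Over all genes it gave 11 up and 0 down, against 344 and 186 without the block. At an unadjusted p under 0.05 in this edgeR fit, 8 members were higher and 3 lower, and the share over all genes at that limit was not taken. The labels assign no pool to any of the 3 days of the experiment, so pool numbers were not taken as pairs. Deviations of same-numbered control and exposed pools correlated at 0.0276 (pool 1) and −0.0718 (pool 3), and these are not independent, since the deviations of 2 exposed pools mirror each other.

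Of the 52 members tested, the direction turned for 11 under spike-in scaling, 3 with the replicate block and 0 with DESeq2. Of the members named by rule, the log2 fold change under spike-in scaling was −0.21 for *Pclo*, −0.17 for *Rims2*, −0.13 for *Stx1a*, −0.017 for *Syn3*, −0.11 for *Syt11* and −0.065 for *Vamp4*. *Slc17a6* gave 0.0061 without a count filter, and *Unc13c* 0.0064 with the replicate block. With 1 library left out, values ranged from −0.44 to 0.36 for *Pclo*, −0.20 to 0.65 for *Rims2*, −0.17 to 0.084 for *Slc17a6*, −0.40 to 0.31 for *Stx1a*, −0.062 to 0.52 for *Syn3*, −0.22 to 0.015 for *Unc13c*, −0.97 to 0.34 for *Vamp1* and −0.24 to 0.49 for *Vamp4*. The difference in share ranged from −0.33 to 1.08 percentage points for *Vamp2* and −0.39 to 3.95 for *Stxbp5l*.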

Other observations

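Among the 24 members below the count filter, a few stood out in single libraries and were chosen after their values were seen. *Stxbp2*, a syntaxin-binding gene of secretory and immune cells, had 865 counts in exposed pool 1 and 62 to 109 counts in the other 4 libraries. *Stxbp6*, which encodes amisyn, had 213 counts in exposed pool 1, 24 in exposed pool 3 and 25, 1 and 0 in control pools 1, 2 and 3. Summed immune markers stood at 457 TPM in exposed pool 1 and at 43.2 to 436 TPM in the other libraries. Of the 10 markers, 5 had their highest count in exposed pool 1 (*Ptprc*, *Cybb*, *Ctss*, *Tyrobp* and *Cd52*) and 5 in control pool 1, and their part in these values was not tested. *Vamp9* had 44, 30 and 63 counts in the control and 5 and 2 in the exposed libraries.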
